A study of Mus musculus with 12 samples.

Results

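Leukemic granulocyte-macrophage progenitors (L-GMP) were set against the whole leukemia they were sorted from, in mouse acute myeloid leukemia (AML) whose cells had lost AMPK, a kinase that senses low cellular energy. The comparison took the log2 of the deposited expression values on the 3 arrays of AMPK-deficient L-GMP and the 3 arrays of AMPK-deficient whole leukemia, 6 of the 12 arrays of the series. These 6 carry the genotype AMPKΔ/Δ (KO) in the labels, on the C57BL/6J strain, and the other 6 are the same populations from AMPKfl/fl (WT) leukemia of that strain, used here for values side by side. The donor cells of every group expressed the fusion oncogene MLL-AF9, and 50000 of them were injected into each recipient after 10 Gy of irradiation. Marrow was taken when AML appeared in each recipient, so the time after injection is not shared between arrays. From it 5000 cells were sorted per sample. Whole leukemia was every GFP-positive cell, a gate that also holds the L-GMP cells, whereas L-GMP had to be GFP-positive, negative for lineage markers, and positive for c-Kit, CD16/32 and CD34. The RNA was amplified from that small input with a whole-transcriptome kit and biotin-labelled. The labels name neither the AMPK subunit whose alleles were deleted, nor the means of deletion, nor the lineage antibodies. Whether the 3 replicates of a group are 3 recipients is not stated either, and every p-value below thus rests on a sample-to-sample spread that could be technical.

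L-GMP cells carry the surface markers of normal granulocyte-macrophage progenitors and are known as the fraction of MLL-AF9 leukemia that most readily transfers the disease. A whole leukemia is a hierarchy in which such progenitors give rise to cells that enter granulocyte and monocyte differentiation without completing it. AMPK is a heterotrimer of a catalytic alpha, a beta and a gamma subunit; when ATP is low it restrains anabolic work such as ribosome and lipid synthesis and favours glucose uptake and the burning of fatty acids.

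On these arrays Prkaa1, which encodes the catalytic alpha1 subunit, read 7.40, 7.45 and 6.95 (log2 intensity) in AMPK-deficient whole leukemia and 7.31, 6.83 and 6.87 in AMPK-deficient L-GMP. All 6 lay below the wild-type arrays, where Prkaa1 ran from 7.72 to 8.69. Prkaa2, the alpha2 subunit gene, stayed between 4.82 and 4.92 on the 6 AMPK-deficient arrays, close to the limit of 4.72 under which genes were left out as dim. Whether these probe sets lie in the deleted stretch is not stated in the labels. The array called AMPK-deficient whole leukemia 2 stood apart from all others: its highest correlation with any array was 0.916 across the 17749 genes tested, while the lowest among the other 11 arrays was 0.914 and the highest of all 66 pairs was 0.983, between whole leukemia 1 and L-GMP 1 of the AMPK-deficient samples. A principal component analysis put whole leukemia 2 at 67.4 on its leading axis (32.4% of the variance) and the next array at 18.5. It was also the array with red cell transcripts: the mean over 18 erythroid genes was 9.09 there and between 5.45 and 6.11 on the remaining 5 AMPK-deficient arrays, and it was the highest of these 6 for 18 of the 18 genes. The part of these transcripts in the results was not tested. L-GMP 2 lay at the end of the next axis (17.0%), at -41.3. The plot of list medians therefore shows every list with and without whole leukemia 2. Medians with single arrays left out are also given beside the lists described below.

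The gene of the CD34 antigen had by far the largest value among the genes of the gate. Cd34 read 5.54, 6.65 and 7.05 in the 3 whole leukemia arrays and 9.45, 9.90 and 9.66 in the 3 L-GMP arrays. The groups were widely separated, and the mean difference was 3.26 ± 0.37 (SE), or 9.55-fold. In wild-type leukemia the L-GMP arrays reached a similar Cd34 level, from 9.57 to 10.05, but whole leukemia was already at 8.48, 9.38 and 8.35, and the difference was 1.03. Kit, the receptor for stem cell factor, read 8.04, 7.59 and 6.88 in whole leukemia and 8.88, 9.40 and 7.65 in L-GMP, a mean difference of 1.14 ± 0.47, with L-GMP 3 below whole leukemia 1. The CD16 gene Fcgr3 was at about the same level in both, 8.85, 8.76 and 9.22 against 8.99, 8.88 and 9.19. The CD32 gene Fcgr2b read 7.21, 6.22 and 7.13 in whole leukemia and 7.55, 7.06 and 7.34 in L-GMP. Fcgr4, which encodes a further low-affinity Fc receptor of the CD16 kind, went the other way, at 6.88, 7.42 and 7.94 in whole leukemia and 6.88, 5.41 and 6.93 in L-GMP, a difference of -1.0 ± 0.47. Because the sort used these proteins, the values serve as a check of the labelled population. Cd34 took part in the fit across all genes and so appears in its ranking and counts, but its place there follows the sort and supports nothing further.

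Of the 10 tested genes of common lineage antigens 8 had lower means in L-GMP, with a median of -0.18, and the largest differences were those of Ly6g and Itgam. Ly6g, a neutrophil antigen gene, read 5.55, 9.88 and 7.37 in whole leukemia and 4.93, 4.45 and 4.68 in L-GMP, so that the arrays did not overlap. The CD11b gene Itgam read 8.75, 10.06 and 9.46 against 8.76, 6.44 and 8.25, where L-GMP 1 matched whole leukemia 1. Ptprc, the pan-leukocyte antigen CD45, which such antibody mixes usually take in its B cell form, read 9.73, 10.28 and 10.26 against 9.70, 8.96 and 9.54. The macrophage antigen gene Adgre1 read 6.91, 5.99 and 7.30 against 7.16, 5.45 and 6.24. The remaining 6 tested antigens, Cd3e, Cd4, Cd8a, Klrb1c, Ly6c1 and Ly6c2, had mean differences between -0.22 and 0.13. Ly6c2, a monocyte antigen gene, was the one at 0.13, and its level was high in both populations (11.47 to 12.16). With single arrays left out the list median ran from -0.31 (without whole leukemia 1) to -0.13 (without L-GMP 2).

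**Figure D1:**
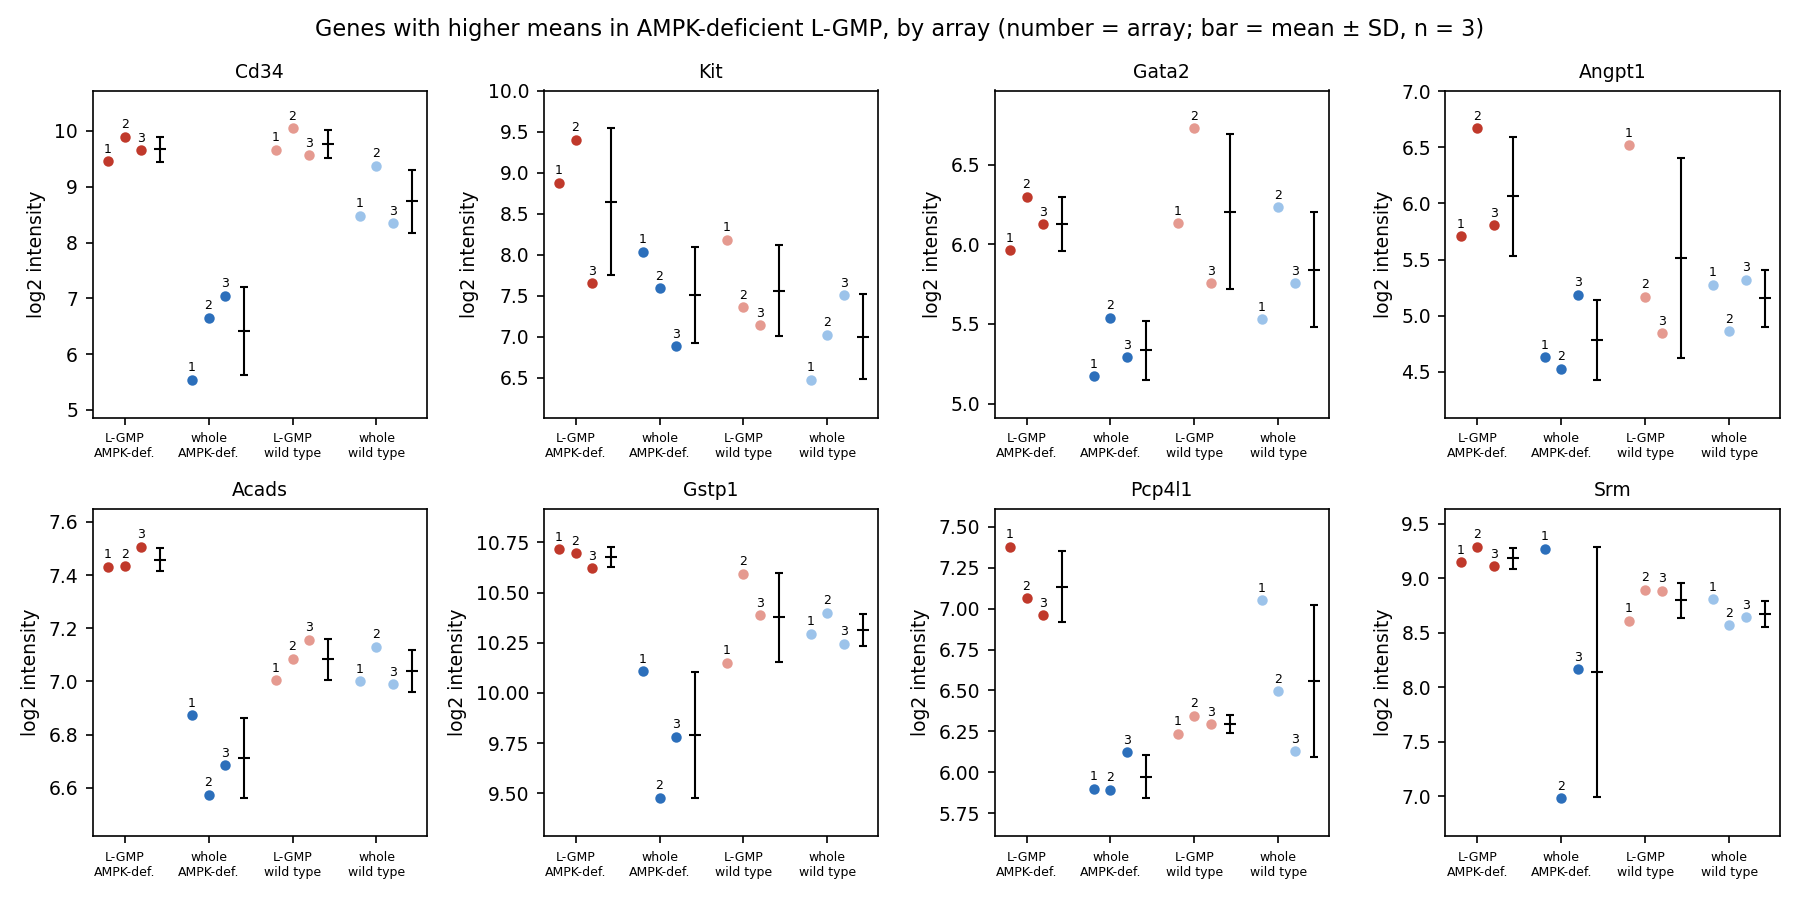
Log2 intensity (y axis) of 8 genes with higher means in AMPK-deficient L-GMP, in each of the 12 arrays, by population and genotype (x axis); points are arrays with their label number and bars are the mean ± SD of 3 arrays. Cd34 separates the AMPK-deficient groups by the widest margin, and Acads lies at 7.43 to 7.51 in L-GMP against 6.57 to 6.87 in whole leukemia, with the wild-type arrays between.

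No gene passed the test across all genes. Of 17749 genes, 0 had a Benjamini-Hochberg adjusted p under 0.05 by limma (percent called 0), while 1312 (7.39%) had an unadjusted p under 0.05, where 887 would be met by chance alone. Of these, 764 (4.30%) were higher and 548 (3.09%) lower in L-GMP. The 3 L-GMP arrays lay all above the 3 whole leukemia arrays for 975 genes (5.49%) and all below for 827 (4.66%), 1802 (10.2%) in all. By chance alone 3 against 3 arrays separate in either direction with a probability of 0.1, so this total is near the chance share. Since 52.4% of all genes had a difference above 0, counts of higher members in the lists below are to be read against that share. Large differences ran mostly downward: 207 genes had a mean difference under -1 and 30 had one over 1, against 70 and 7 in wild-type leukemia. The median SE of a difference was 0.15 and the median 95% interval reached 0.34 to either side, so shifts smaller than that could not be told from 0 for a typical gene. The count depended on a single array: leaving out whole leukemia 1 gave 40 genes by the same test (13 higher and 27 lower, 8 of them among the 24 named next), whereas leaving out any other array gave 0, and the other settings tried gave 0 to 2. A permutation test of a single gene with 3 against 3 arrays cannot go below an exact p of 0.1.

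The 12 genes of lowest p with higher values in L-GMP, none of which passed, began with Cd34, the gene of the sorted antigen, whose adjusted p of 0.0743 by limma was the lowest of all and is no independent finding. Acads, the mitochondrial short-chain acyl-CoA dehydrogenase that starts the oxidation of short fatty acids, came next. It read 6.87, 6.57 and 6.69 in whole leukemia and 7.43, 7.43 and 7.51 in L-GMP, a tight pair of groups 0.75 ± 0.09 apart (1.68-fold, adjusted p = 0.0930 by limma). In wild-type leukemia the difference for Acads was 0.04. The glutathione transferase gene Gstp1, whose probes may also read its near-identical neighbour Gstp2, went from 10.11, 9.48 and 9.78 to 10.72, 10.70 and 10.62. Pcp4l1, a small calmodulin-binding-like protein gene, read 5.90, 5.89 and 6.12 against 7.38, 7.06 and 6.96, a difference of 1.16 ± 0.20. Mtr, the vitamin B12-dependent methionine synthase, was 0.60 ± 0.14 higher, at 7.11, 7.21 and 6.97 against 6.80, 6.43 and 6.28.

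Oxa1l inserts proteins into the inner mitochondrial membrane and read 7.78, 7.41 and 7.82 in whole leukemia against 8.02, 8.39 and 8.39 in L-GMP. Atp23, a protease that helps assemble the ATP synthase, was 0.90 ± 0.20 higher, and Rpl30, a ribosomal protein gene whose many pseudogenes may share its probes, was 0.89 ± 0.20 higher. Rad9a belongs to the DNA damage clamp of the checkpoint and read 6.93, 6.94 and 7.01 against 7.40, 7.37 and 7.42, a small gap of 0.43 ± 0.08 between very even groups. Ubac2, an endoplasmic reticulum protein gene (0.77), Cwf19l1 (0.76) and Nlgn2, a neuroligin best known at inhibitory synapses (0.65), complete the 12. From Pcp4l1 and Gstp1 on, the adjusted p was 0.671 for each. All 12 stayed higher without whole leukemia 2, 11 of them by less. The wild-type difference had the same sign for 9, where 59.3% of all genes agreed in sign. In wild type the arrays of 4 lay wholly above, against 4.89% of all genes there.

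Of the 12 genes of lowest p with lower values in L-GMP none passed either (adjusted p = 0.671 for each by limma). Lilrb4a had the largest difference of the 12, and Klra2 and Slc15a3 had the lowest p. Lilrb4a, an inhibitory immunoglobulin-like receptor of myeloid cells, read 8.94, 11.50 and 9.58 in whole leukemia and 7.23, 6.19 and 6.90 in L-GMP, a difference of -3.23 ± 0.73, or 0.106 times the whole leukemia level. Klra2, of the Ly49 receptor family, read 7.14, 7.80 and 7.17 against 5.69, 4.80 and 5.39. Slc15a3, a lysosomal transporter of histidine and small peptides, read 6.33, 7.59 and 7.75 against 5.45, 4.97 and 5.52. For both the lowest whole leukemia array lay clearly above the highest L-GMP array. Members of families such as Lilrb4a, Klra2 and Lyz1 have close copies that may share probe sequence.

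A pair of genes of the interleukin-1 family and a chemokine gene were among the 12. Il1rn, the natural antagonist of the interleukin-1 receptor, read 6.18, 6.70 and 6.67 in whole leukemia and 5.53, 5.20 and 5.03 in L-GMP, a difference of -1.26 ± 0.29. Il1f9, which encodes the related cytokine IL-36 gamma, read 5.51, 6.74 and 6.90 against 4.91, 4.58 and 4.75. Ccl6, a chemokine of myeloid cells, read 6.43, 8.34 and 7.25 against 5.65, 5.60 and 5.52. In Il1f9 and Ccl6 the L-GMP arrays lay close together and the whole leukemia arrays spread more widely, whereas in Il1rn the spread was similar in both groups. Whole leukemia 1 was the lowest of its group for each of these 3 genes. Trpm2, a calcium channel opened by oxidative stress (-1.17), Resf1, a repressor of endogenous retroviruses (-1.16), Lyz1, a lysozyme gene (-0.96), Mir3109, a microRNA gene (-0.93), Igf2r, the cation-independent mannose 6-phosphate receptor (-0.92), and Creb3, a transcription factor anchored in the endoplasmic reticulum (-0.53), complete the list. In wild-type leukemia 11 of the 12 were also lower, where 59.3% of all genes agreed in sign. The arrays of 4 lay wholly below, against 5.40% of all genes there.

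**Figure D2:**
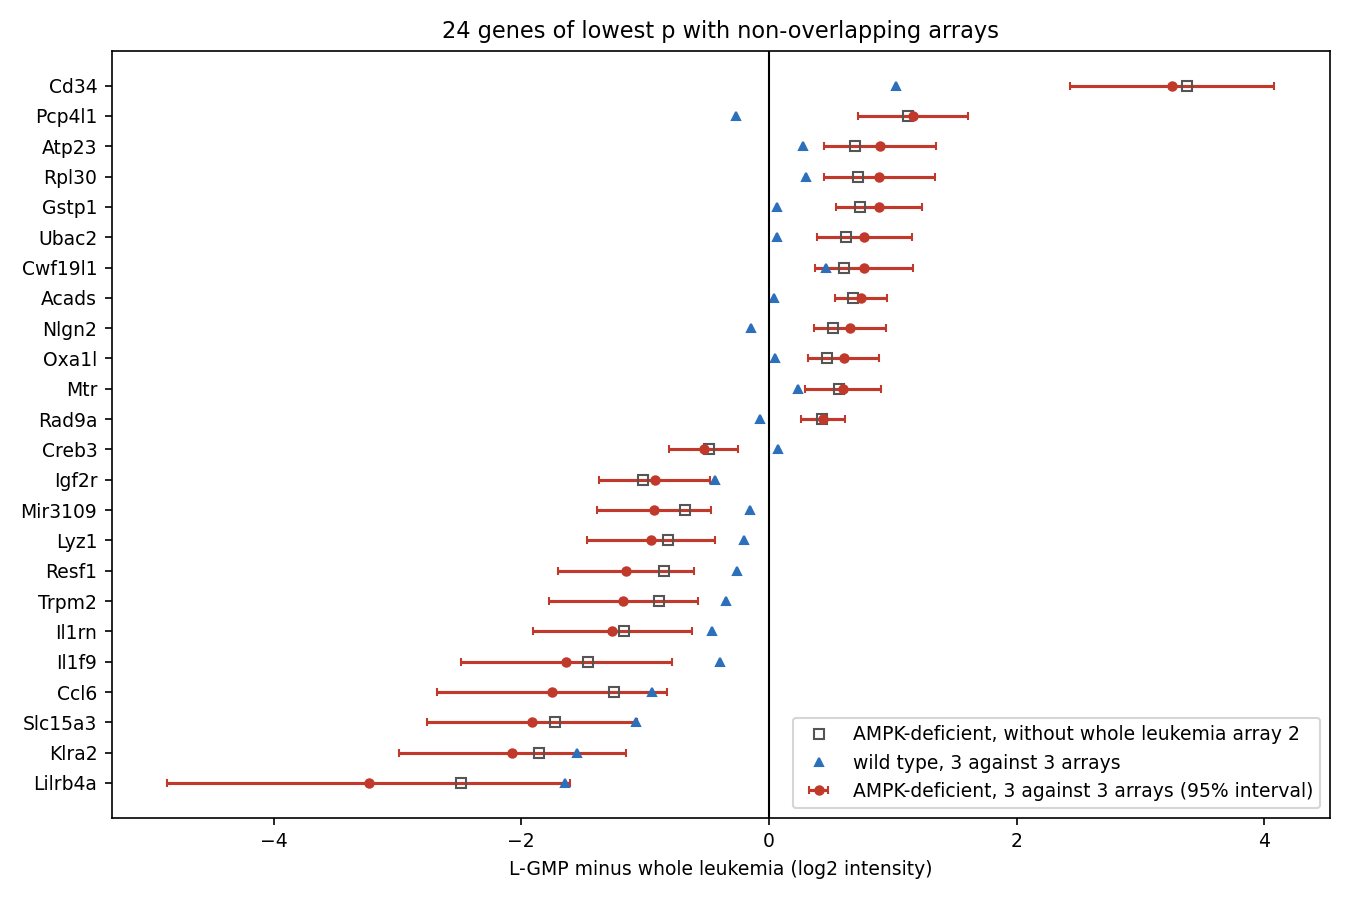
Mean log2 difference, L-GMP minus whole leukemia (x axis), for the 24 genes (y axis) of lowest p whose arrays did not overlap: circles with 95% intervals are AMPK-deficient leukemia with all 6 arrays, squares the same without whole leukemia 2, and triangles wild-type leukemia. Cd34 lies at 3.26 and Lilrb4a at -3.23. Without whole leukemia 2, 22 of the 24 are closer to 0. For 20 the wild-type value has the same sign, as it does for 59.3% of all genes.

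Genes that mark the maturing neutrophil were the group with the largest difference. All 37 tested members of this list had a lower mean in L-GMP, and for 14 of them the arrays did not overlap, against 4.66% of all genes. The median difference was -1.59, where that of all genes was 0.01, and 0 members passed the test. L-GMP were sorted as negative for lineage markers and whole leukemia was not. The part of that gate in the neutrophil difference cannot be told apart here and was not tested. Retnlg, a resistin-like protein of late neutrophils, read 7.04, 11.28 and 9.63 in whole leukemia and 4.90, 4.73 and 4.54 in L-GMP, a difference of -4.60 ± 1.16. Mmp8, the neutrophil collagenase stored in secondary granules, read 8.06, 11.37 and 8.83 against 6.24, 5.33 and 5.07, a difference of -3.87 ± 1.10. In both genes every whole leukemia array lay far above every L-GMP array. Fpr2, a formyl peptide receptor that guides neutrophils to bacteria, read 6.83, 9.74 and 8.97 against 5.56, 5.07 and 5.77. Il1r2, the decoy receptor for interleukin-1, read 7.39, 9.54 and 9.48 against 5.43, 5.56 and 7.60, with L-GMP 3 above whole leukemia 1. Slfn4, a schlafen gene of activated myeloid cells, read 9.09, 9.92 and 9.60 against 8.81, 5.71 and 8.15.

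The size of the neutrophil difference depended on the arrays of both populations. The mean over the 37 genes was 8.24, 10.05 and 9.53 in whole leukemia 1, 2 and 3 and 7.94, 7.10 and 7.86 in the 3 L-GMP arrays. Whole leukemia 1 was the lowest of the 3 whole leukemia arrays for 32 of the genes, and whole leukemia 2, the array with the erythroid mean of 9.09, was the highest of the 6 arrays for 29. Without whole leukemia 2 the median was -1.22 with 36 genes lower, without L-GMP 2 it was -1.16 with 35 lower, and without both it was -0.81 with 32 lower. Leaving out whole leukemia 1 moved it the other way, to -1.96. In wild-type leukemia 36 of the 37 were lower, with a median of -0.79. With all arrays the difference was larger in size in AMPK-deficient leukemia for 32 genes, and no interaction passed (lowest adjusted p = 1 by limma). Sizes were also larger there over all genes, at a median of 0.12 against 0.10 in wild type. The neutrophil median of -0.81 without both arrays numbered 2 was close to the wild-type -0.79. In sorted bulk samples fewer cells of a type and less of its RNA per cell cannot be told apart.

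The promoters of Retnlg and Mmp8 are shown because both genes separated the populations by a wide margin and because C/EBP factors, which drive granule genes in granulocytes, bind sites related to the pattern TTNNGCAA. The windows are the 250 bases before the start of the gene in RefSeq (GRCm38.p6), written 5′ to 3′ along the gene's strand, with matches to the pattern on either strand in capitals.
Retnlg, chr16:48872358-48872607, plus strand: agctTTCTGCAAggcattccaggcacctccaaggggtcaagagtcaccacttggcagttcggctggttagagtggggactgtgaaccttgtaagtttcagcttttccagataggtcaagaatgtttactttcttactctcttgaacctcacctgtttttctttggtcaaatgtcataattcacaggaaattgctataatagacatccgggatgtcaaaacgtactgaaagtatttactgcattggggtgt
Mmp8, chr9:7558179-7558428, plus strand: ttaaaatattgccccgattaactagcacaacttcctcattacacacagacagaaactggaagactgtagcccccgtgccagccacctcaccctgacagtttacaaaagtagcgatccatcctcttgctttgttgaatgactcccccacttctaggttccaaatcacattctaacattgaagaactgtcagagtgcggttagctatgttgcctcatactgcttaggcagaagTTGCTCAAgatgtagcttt
Each holds 1 match, near the far end of the window in Retnlg and close to the start site in Mmp8. Of the 37 neutrophil genes 31 had a window, and 9 of these (29.0%) held the pattern, compared with 1104 of 13700 windows (8.06%) over all genes tested and 2 of 31 (6.45%) over the ribosome biogenesis genes described further on. The windows of Fpr2, Il1r2 and Slfn4, the other list members described above, held none. The windows shown are thus the ones with a match, and the arrays of Fpr2 were separated too. The sequence CACGTG, an E-box read by Myc, was in 1 of 31 windows of either list, against 1043 of 13700 (7.61%). A match of letters is a description of the sequence, and binding was not measured.

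**Figure D3:**
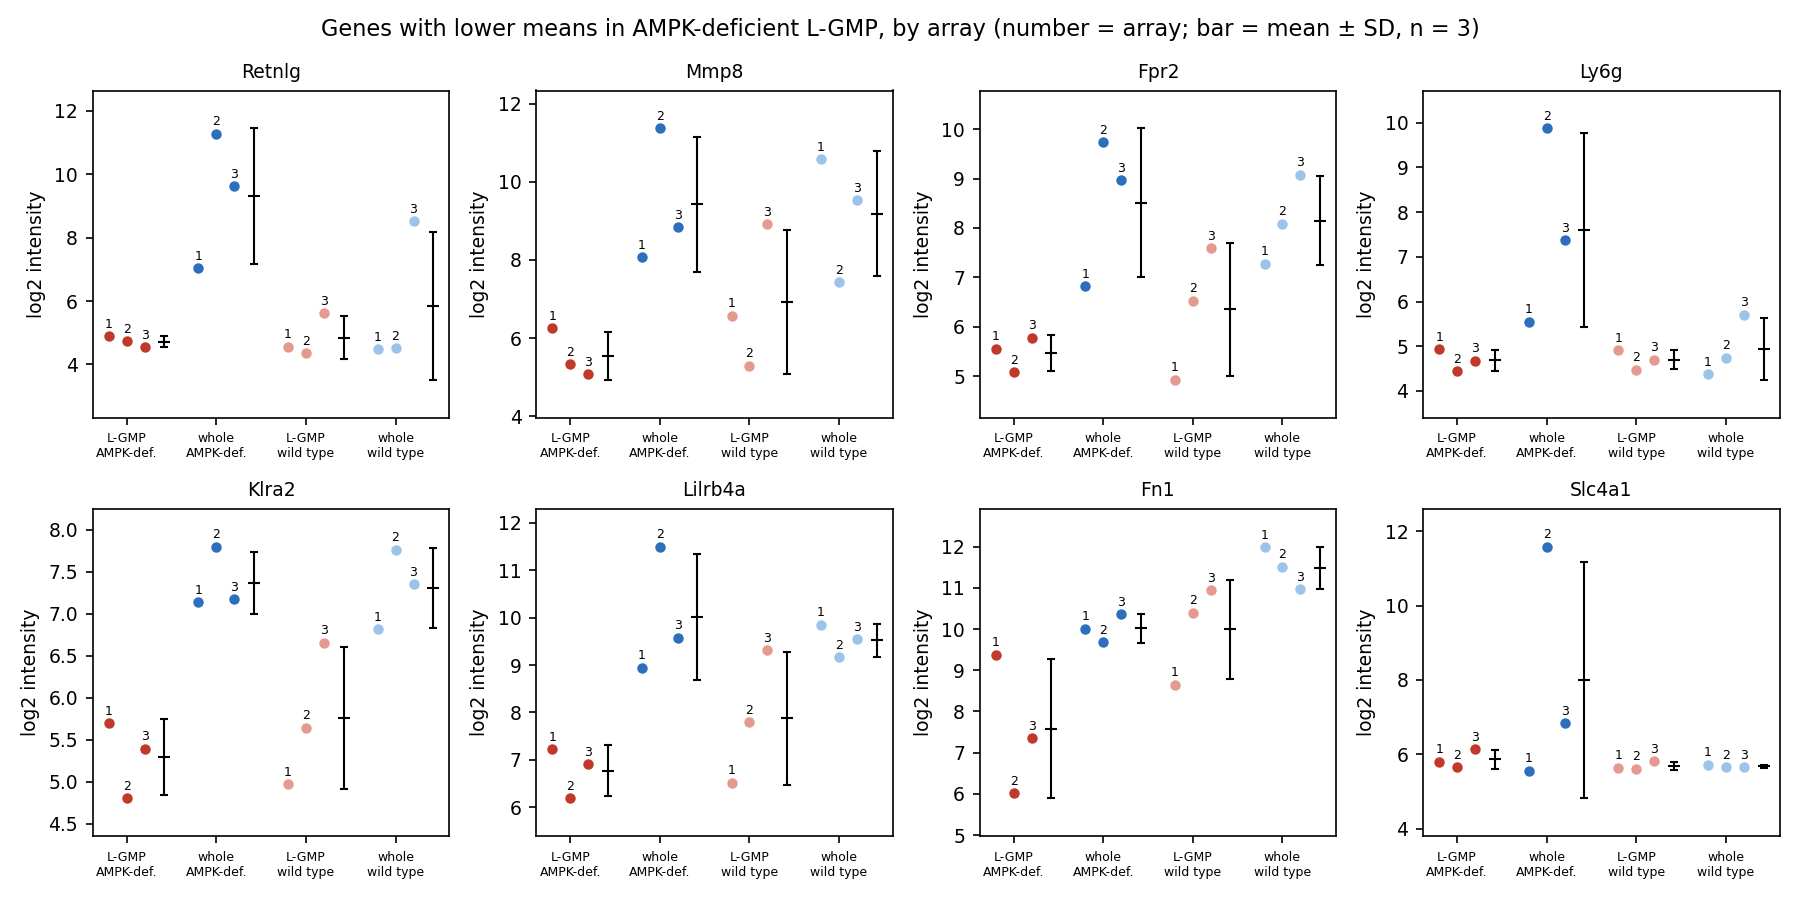
Log2 intensity (y axis) of 8 genes with lower means in AMPK-deficient L-GMP, in each of the 12 arrays, by population and genotype (x axis); points are arrays with their label number and bars are the mean ± SD of 3 arrays. The 3 L-GMP arrays of Retnlg lie between 4.54 and 4.90 while whole leukemia spreads from 7.04 to 11.28, and Slc4a1 is high in whole leukemia 2 at 11.58.

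Monocyte and macrophage genes had lower values too, but less evenly. The same limit of the lineage gate holds for them. Of 35 tested, 25 were lower and 10 higher, the arrays of 10 lay wholly below (4.66% of all genes did) and of 1 wholly above (5.49% of all genes), and the median was -0.25. Lyz1 was described above. Vcan, the matrix proteoglycan versican of classical monocytes, read 6.57, 5.85 and 6.57 in whole leukemia and 5.59, 5.04 and 4.95 in L-GMP. Fn1, fibronectin, read 10.01, 9.68 and 10.36 against 9.38, 6.02 and 7.35, a difference of -2.43 ± 0.78 in which L-GMP 1 stood far above the other two. Tgfbi, a secreted adhesion protein of monocytes, read 7.05, 9.53 and 8.49 against 6.59, 6.39 and 6.85, and Slc11a1, the phagosomal metal transporter, was 0.95 lower in the mean (difference -0.95 ± 0.34). For Vcan, Fn1 and Tgfbi the arrays did not overlap. Unlike the neutrophil list, the monocyte list had its larger median in wild-type leukemia, -0.63 with 33 of 35 lower, a contrast that was not tested over the list; without AMPK-deficient whole leukemia 2 the median was -0.41 with 28 lower. Over single arrays left out it ran from -0.46 (without L-GMP 1) to -0.14 with 20 lower (without whole leukemia 3).

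Receptors and cytokines of innate immunity gave the same direction for most members, with few separated arrays. Of 28 innate receptors 21 were lower (median -0.15), with 2 wholly below and 1 wholly above, which is near the 4.66% and 5.49% of all genes. The median was -0.19 with 20 lower without whole leukemia 2, but -0.03 with 17 lower without L-GMP 2 and -0.01 with 16 lower without both, and without L-GMP 3 it was -0.26. In wild-type leukemia 25 of the 28 were lower, with a median of -0.38 and 9 wholly below, against 5.40% of all genes there. C5ar1, the receptor for complement C5a, read 5.66, 8.31 and 7.51 in whole leukemia and 5.50, 4.82 and 5.37 in L-GMP. P2ry13, a receptor for ADP, read 5.70, 7.24 and 6.71 against 5.39, 5.62 and 5.74, and the nucleic acid sensor Tlr13 read 6.35, 8.30 and 8.16 against 6.12, 4.49 and 6.74. C5ar1 and P2ry13 were among the 40 genes called without whole leukemia 1, at -2.68 and -1.39. Of 24 inflammatory and NF-kB genes 16 were lower (median -0.19), and the 2 whose arrays lay wholly below, against 4.66% of all genes, were Il1rn and Ccl6. Il1b, the cytokine interleukin-1 beta, read 4.91, 8.42 and 6.11 against 4.82, 4.93 and 4.59, and Cxcl2, a chemokine that calls neutrophils, read 5.55, 8.46 and 6.36 against 5.82, 5.22 and 5.64. Both were high in whole leukemia 2, and without that array the median of the inflammatory list was -0.04 with 14 lower, without L-GMP 2 it was -0.09, and without whole leukemia 1 it was -0.31. The wild-type median of the inflammatory list was -0.24, with 19 of 24 lower.

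Genes of stem and progenitor cells had higher values for 17 of 26 members, with a median of 0.26. For 5 members the L-GMP arrays lay wholly above, against 5.49% of all genes. The other 9 were lower, down to -0.99, with 0 wholly below. L-GMP were sorted as positive for c-Kit and CD34, and the part of that gate in this list was not tested. The members named next, those of lowest p, were all higher. Gata2, a transcription factor of blood stem cells and early progenitors, read 5.17, 5.54 and 5.29 in whole leukemia and 5.96, 6.30 and 6.13 in L-GMP, 0.79 ± 0.24 apart. Angpt1, a ligand of the Tie2 receptor made by immature blood cells, read 4.63, 4.53 and 5.19 against 5.71, 6.67 and 5.81, 1.28 ± 0.41 apart. With the mean of all its probe sets the difference for Angpt1 was smaller, 0.76 ± 0.26. Erg, an ETS factor needed by stem cells, read 6.67, 7.12 and 7.61 against 8.07, 7.69 and 7.88. The lectin-like receptor gene Cd93, known as a marker of stem cells in MLL-rearranged leukemia, read 6.83, 6.16 and 7.42 against 7.40, 8.0 and 7.55, where L-GMP 1 lay just under whole leukemia 3. Runx1, a core factor of blood formation, differed by 0.35 ± 0.14. The list median was 0.21 without whole leukemia 2, with 21 higher. Over single arrays left out it ran from 0.19 (without L-GMP 2) to 0.40 (without L-GMP 3). In wild-type leukemia it was 0.03, with 0 members wholly above and 3 wholly below, against 4.89% and 5.40% of all genes there. The adjusted p of every member was at least 0.671 by limma.

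Differences among genes tied to MLL-AF9 itself ran both ways, from -1.20 to 0.97. Of 22 genes known as its targets or partners, 15 were higher (median 0.13), but without whole leukemia 2 the split was 11 to 11 with a median of -0.00, and without whole leukemia 3 the median was 0.25. Meis1, a homeobox cofactor of Hox proteins, read 7.27, 6.65 and 8.30 in whole leukemia and 8.88, 7.18 and 8.74 in L-GMP. Id2, an inhibitor of helix-loop-helix factors, read 6.44, 9.14 and 8.89 against 6.96, 6.19 and 7.72, and the survival gene Bcl2 read 6.09, 5.87 and 5.68 against 6.99, 7.72 and 5.83. The difference for Bcl2 was 0.97, and 0.58 with the mean of all its probe sets. Myb, a transcription factor of progenitors, and Cdk6, a kinase of G1 progression, had similar values on 5 of 6 arrays and were low in whole leukemia 2, at 8.87 and 8.66.

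Primary granule genes, which normal progenitors of this stage make, were high in both populations. Of 24 tested, 15 were higher and 9 lower in L-GMP, with a median of 0.32, which was 0.05 without whole leukemia 2, 0.11 without L-GMP 2, 0.48 without whole leukemia 1 and -0.03 without both arrays numbered 2. In this list 1 gene lay wholly above and 1 wholly below, against 5.49% and 4.66% of all genes. Cst7, the protease inhibitor cystatin F, read 8.82, 8.0 and 8.30 against 8.63, 10.84 and 9.44. Prtn3, proteinase 3, read 10.99, 9.64 and 10.91 against 11.05, 11.51 and 11.22, and Ctsg, cathepsin G, 12.01, 9.81 and 11.75 against 12.10, 12.19 and 11.96. Calr, the chaperone calreticulin, read 10.59, 8.93 and 9.63 against 10.69, 10.92 and 10.35. In Prtn3, Ctsg and Calr whole leukemia 2 was the lowest of the 6 arrays. Csf2rb, the common beta chain of the GM-CSF receptor, read 7.26, 7.80 and 7.55 against 7.14, 6.69 and 7.20, wholly below. The high levels of Elane (12.18 to 12.24 in L-GMP) and Mpo (10.29 to 12.23), the classical enzymes of this stage, were as the label L-GMP calls for, though whole leukemia was similar, at 10.29 to 12.32 for Elane and 9.63 to 11.54 for Mpo.

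**Figure D4:**
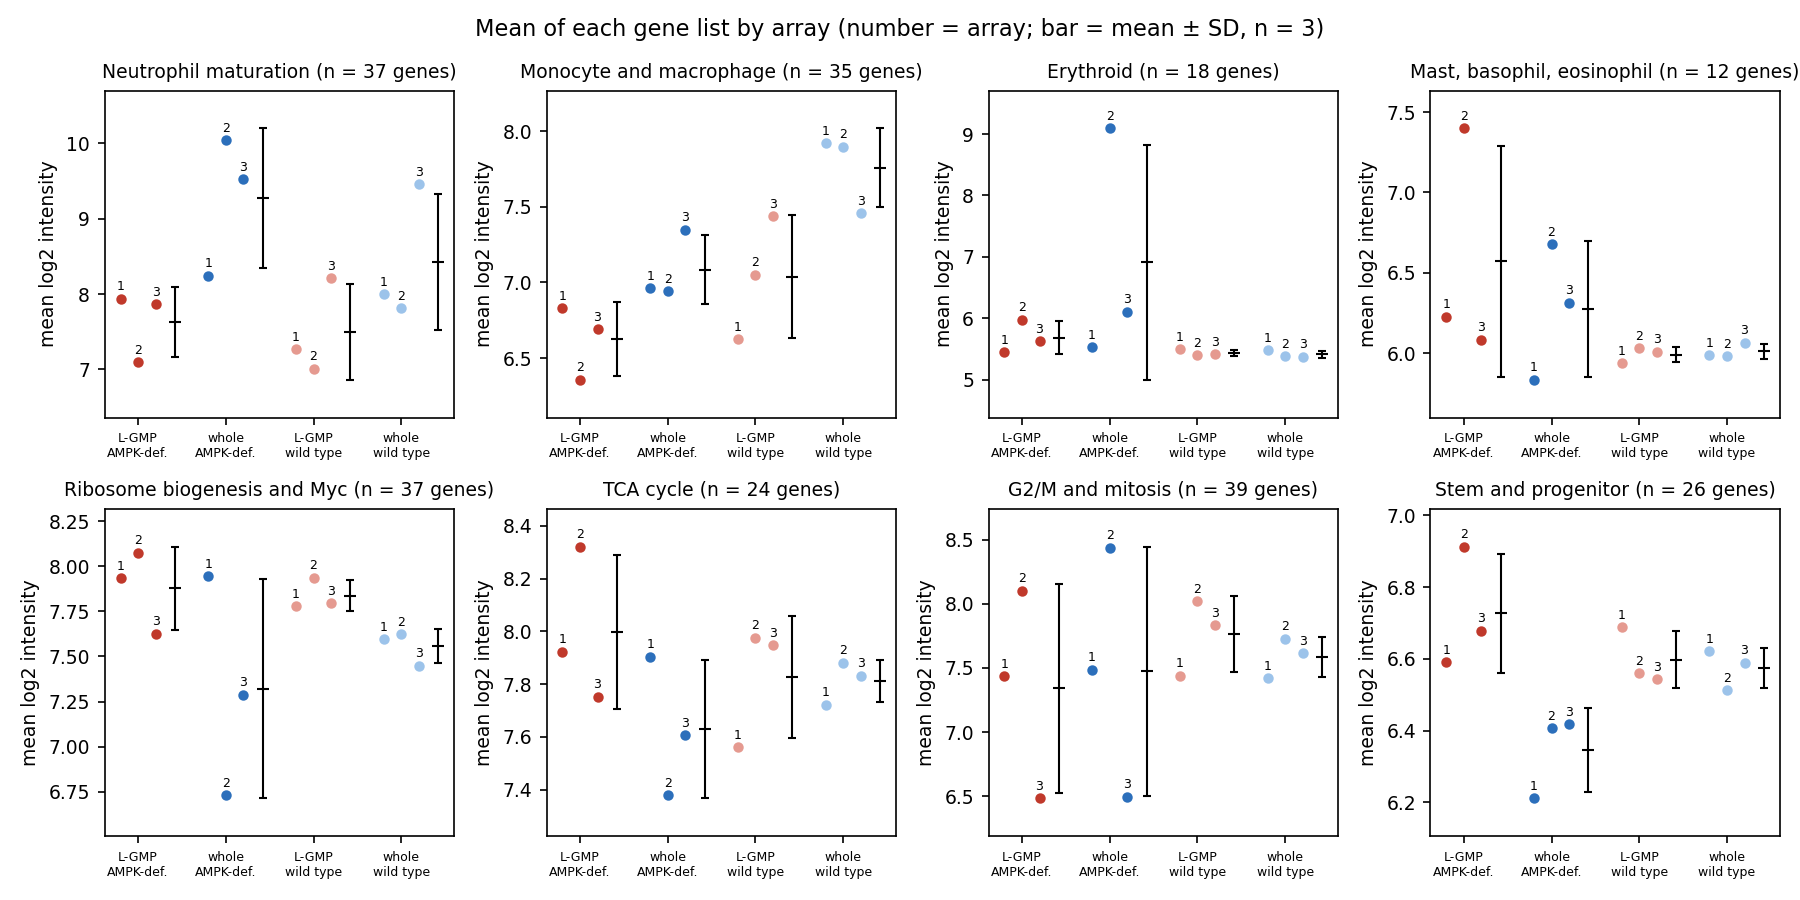
Mean log2 intensity (y axis) over the tested genes of 8 lists in each of the 12 arrays, by population and genotype (x axis); points are arrays with their label number and bars are the mean ± SD of 3 arrays. Whole leukemia 2 of the AMPK-deficient samples is high for erythroid genes at 9.09 and low for ribosome biogenesis genes at 6.73, and L-GMP 2 is high for mast cell, basophil and eosinophil genes at 7.40.

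Genes that build ribosomes had higher means in L-GMP throughout, by modest amounts. All 37 members of the list of ribosome biogenesis genes and Myc were higher, with a median of 0.55, yet the arrays of 2 lay wholly above, which is near the 5.49% of all genes. Bysl, a factor of small subunit assembly, read 6.37, 5.88 and 5.82 in whole leukemia and 6.67, 6.59 and 6.57 in L-GMP, 0.59 ± 0.16 apart. Wdr74 and Nle1, both of large subunit assembly, read 8.03, 7.28 and 7.77 against 8.40, 8.69 and 7.89, and 6.05, 5.39 and 5.91 against 6.11, 6.29 and 6.49. Mybbp1a, of the nucleolus, read 7.87, 6.53 and 7.11 against 7.90, 8.28 and 7.59. Bysl and Nle1 were the 2 with separated arrays, and in all 4 whole leukemia 1 was the closest to L-GMP. The mean of the whole list was 7.94 in whole leukemia 1, 6.73 in 2 and 7.29 in 3, against 7.93, 8.08 and 7.63 in L-GMP. Whole leukemia 2, again the array with the high erythroid mean, was the lowest of 6 for 33 of the 37. Without it all 37 were still higher, with a median of 0.27, the same as in wild-type leukemia, where all 37 were higher too and 12 lay wholly above, against 4.89% of all genes. Without both arrays numbered 2, 30 were higher and the median was 0.15, and without whole leukemia 1 the median was 0.88.

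Suppliers of nucleotides, charged tRNAs and mitochondrial ribosomes had differences in the same range. For nucleotide, one-carbon and serine synthesis 22 of 23 genes were higher (median 0.53), for tRNA synthetases 13 of 18 (0.43) and for mitochondrial ribosomal proteins 29 of 30 (0.40), with arrays wholly above for 0, 2 and 2 genes, against 5.49% of all genes. Atic, which closes the purine ring, read 8.86, 7.35 and 7.98 in whole leukemia and 9.05, 8.80 and 8.53 in L-GMP. Qars, the glutaminyl-tRNA synthetase, read 6.57, 6.15 and 6.49 against 6.75, 6.97 and 6.79, and Mrps30, of the small mitochondrial subunit, 6.57, 5.99 and 6.43 against 6.77, 7.34 and 6.80. For Qars and Mrps30 every L-GMP array lay above every whole leukemia array. Without whole leukemia 2 these medians were 0.35, 0.24 and 0.16, and in wild-type leukemia 0.25, 0.11 and 0.13. They were 0.80, 0.63 and 0.71 without whole leukemia 1, and 0.32, 0.30 and 0.34 without L-GMP 2. Without both arrays numbered 2 they were 0.15, 0.12 and 0.04, with 17, 12 and 18 genes higher.

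Among energy pathways nearly every gene of the tricarboxylic acid (TCA) cycle had a higher mean. Of its 24 genes 23 were higher in L-GMP, 4 with arrays wholly above (5.49% of all genes were), and the median was 0.25. Idh3g, a regulatory subunit of the NAD-dependent isocitrate dehydrogenase, read 9.81, 9.57 and 9.68 in whole leukemia and 10.12, 10.48 and 10.03 in L-GMP, 0.53 ± 0.15 apart. Idh2, the mitochondrial NADP-dependent form, read 8.48, 6.65 and 7.19 against 8.58, 9.70 and 8.43, 1.46 ± 0.45 apart, with L-GMP 3 just under whole leukemia 1. Suclg1, the alpha subunit of succinyl-CoA ligase, read 8.03, 7.46 and 7.89 against 8.18, 8.70 and 8.13. Wild-type leukemia had 14 of the 24 higher and a median of 0.05, with Idh3g at -0.09 and Idh2 at 0.14. The median was 0.18 with 20 higher without whole leukemia 2 and 0.20 with 18 higher without L-GMP 2, the array that was highest for Idh3g, Idh2 and Suclg1. Without both it was 0.09 with 15 of 24 higher, and without L-GMP 3 it was 0.46.

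The respiratory chain and fatty acid oxidation followed with smaller shifts. Of 37 respiratory chain genes 33 were higher, 4 with arrays wholly above (5.49% of all genes were), at a median of 0.18. Without whole leukemia 2, 27 were higher and the median was 0.07; without L-GMP 2 the split was 19 to 18 and the median 0.00. Without both arrays numbered 2 the direction turned, with 11 of 37 higher and a median of -0.07. Cox5a, a subunit of cytochrome c oxidase, read 10.38, 9.82 and 10.09 against 10.50, 10.79 and 10.39. Of 17 fatty acid oxidation genes 12 were higher (median 0.13), with 3 wholly above against 5.49% of all genes, among them Acads and Echs1, the short-chain enoyl-CoA hydratase, at 7.69, 5.85 and 7.53 against 7.72, 7.95 and 7.96. Slc25a20, the carrier that takes acylcarnitines into mitochondria, lay on the other side, at 7.00, 6.99 and 6.38 against 6.26, 6.62 and 5.73. The median of this list was 0.17 without whole leukemia 2 and 0.34 without L-GMP 3, but -0.03 without L-GMP 2, where the split was 8 to 9, and -0.06 without both arrays numbered 2, with 7 of 17 higher.

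Glucose handling, which AMPK is known to promote, showed no common direction. Of 23 genes of glucose uptake and glycolysis 12 were higher and 11 lower, with a median of 0.01 and no gene whose arrays were apart, and with single arrays left out the median stayed between -0.04 and 0.03. Slc16a3, which exports lactate, read 6.76, 6.69 and 6.71 in whole leukemia and 6.27, 5.81 and 6.70 in L-GMP, and the glucose transporter gene Slc2a6 read 5.88, 6.91 and 6.37 against 5.92, 5.75 and 6.04. The transporters Slc2a1 and Slc2a3 had differences of -0.58 ± 0.30 and -1.23 ± 0.62. Of the 9 genes of the pentose phosphate pathway and NADPH supply 4 were higher and 5 lower (median -0.13, and from -0.19 to 0.16 over single arrays left out); Pgd, an NADPH-forming enzyme, read 10.01, 9.75 and 9.82 against 9.63, 8.93 and 9.52. Of 23 antioxidant and glutathione genes 8 were higher (median -0.06, and 0.04 with 12 higher without whole leukemia 2, -0.19 without L-GMP 2), and the 2 with arrays wholly above, against 5.49% of all genes, were Txnrd1, thioredoxin reductase (6.69, 6.71 and 6.67 against 6.92, 7.35 and 7.00), and Gss, glutathione synthetase (6.01, 6.12 and 6.19 against 6.40, 6.62 and 6.45). In wild-type leukemia Txnrd1 differed by -0.15 and Gss by 0.17.

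The direction of division genes could turn when 1 array numbered 2 or 3 was left out and its same-numbered partner was kept. For G1/S and replication 22 of 37 genes were higher (median 0.09), and for G2/M and mitosis 14 of 39 (median -0.13). The mean of the G2/M list was 7.49, 8.44 and 6.50 in whole leukemia and 7.44, 8.10 and 6.48 in L-GMP, so that arrays of 1 number lay closer together than arrays of 1 population. Mki67, the Ki-67 proliferation antigen, read 9.27, 11.18 and 8.46 against 9.18, 9.46 and 7.83. The difference for Mki67 was -0.82, but 0.029 with array weights. Without whole leukemia 2, 35 of the 39 G2/M genes were higher (median 0.37), without L-GMP 2, 2 were higher (median -0.52), and without both 17 were higher (median -0.04). Without whole leukemia 3, 2 were higher (median -0.55), and without L-GMP 3, 36 (median 0.33). The G1/S median ran from -0.16 without L-GMP 2 to 0.36 without L-GMP 3, and was 0.19 without whole leukemia 2. Of the 37 G1/S genes 1 lay wholly above and 0 wholly below, against 5.49% and 4.66% of all genes. The 1 was the replication licensing factor Cdt1, at 7.51, 7.59 and 7.18 against 7.89, 8.03 and 7.74. In wild-type leukemia 36 of 39 G2/M genes and 35 of 37 G1/S genes were higher, at medians of 0.17 and 0.20.

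Erythroid genes were lower in L-GMP for 18 of 18 members, with a median of -1.24, and this rested on whole leukemia 2. Slc4a1, the band 3 anion exchanger of red cells, read 5.56, 11.58 and 6.83 in whole leukemia and 5.80, 5.65 and 6.14 in L-GMP. Tfrc, the transferrin receptor, read 8.32, 10.18 and 7.87 against 7.89, 7.79 and 7.86. Without that array the erythroid median was -0.14, with 15 lower and 3 higher, and without whole leukemia 1 it was -1.89.

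**Figure D5:**
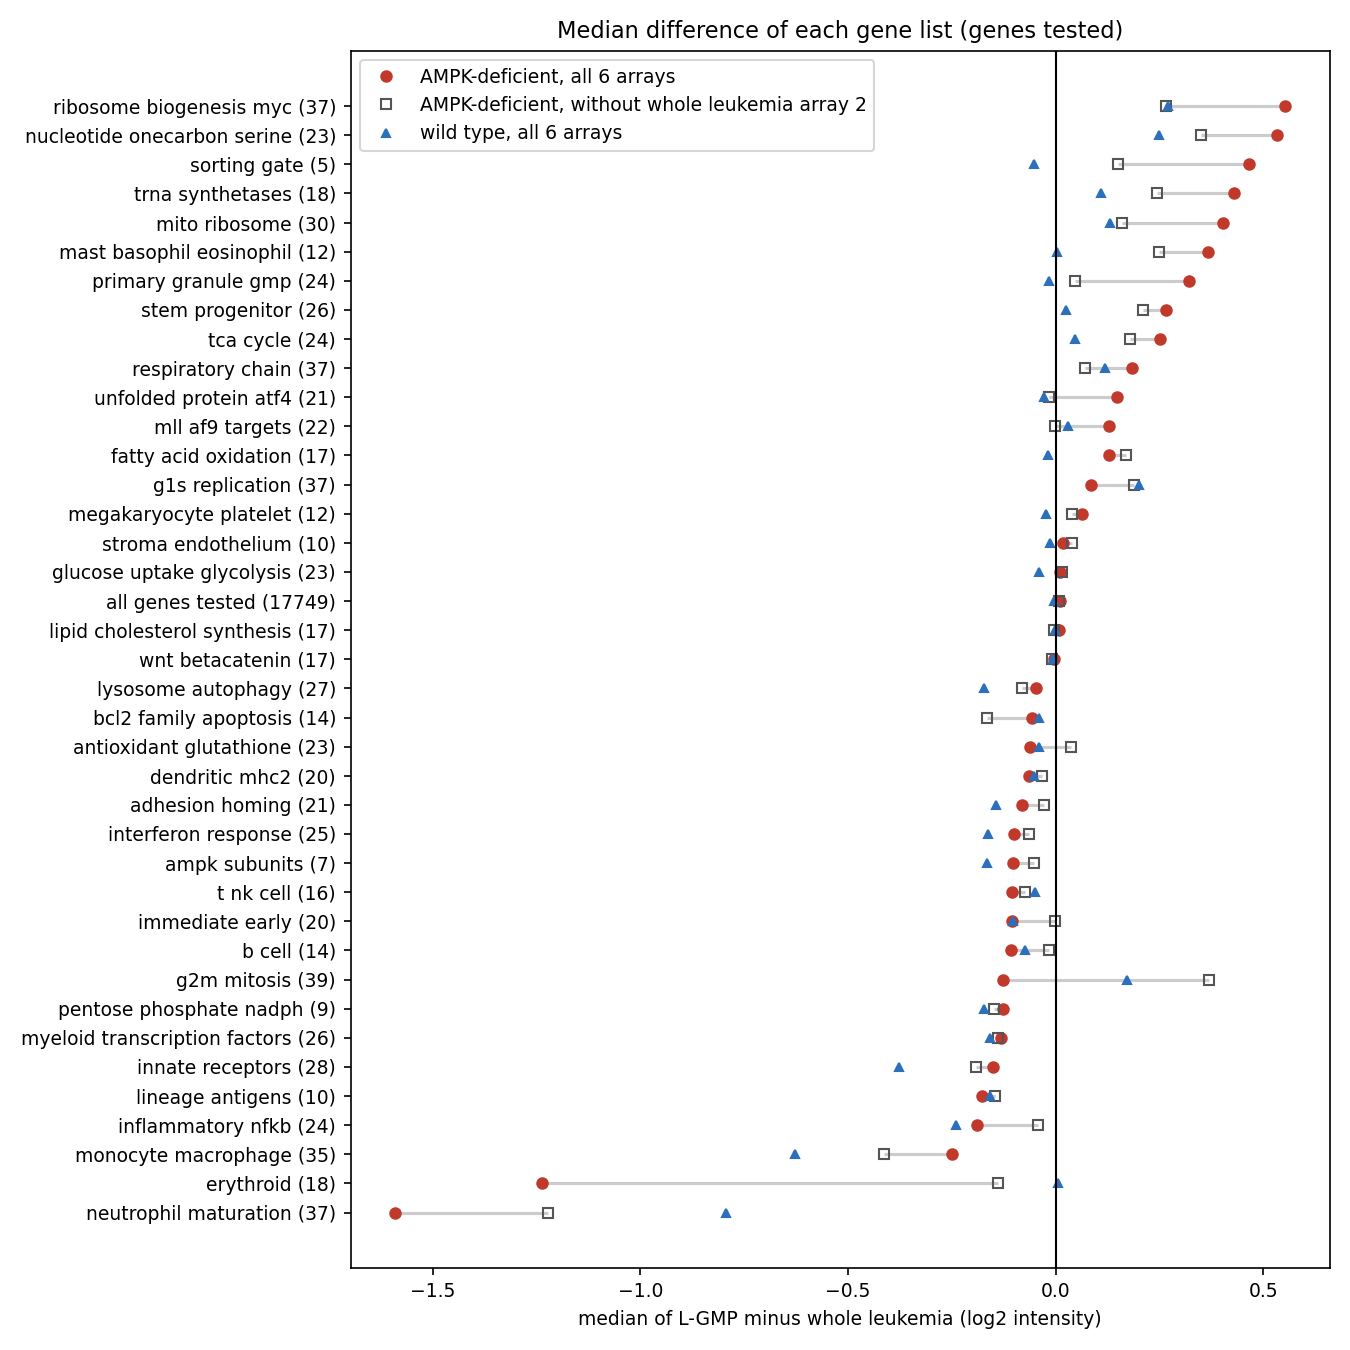
Median log2 difference, L-GMP minus whole leukemia (x axis), of each gene list with the number of genes tested (y axis): circles are AMPK-deficient leukemia with all 6 arrays, squares the same without whole leukemia 2, and triangles wild-type leukemia. The neutrophil list stays lowest at -1.22 without that array, the erythroid list goes from -1.24 to -0.14, and the G2/M list changes sign.

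Set beside wild-type leukemia, the AMPK-deficient difference had the same sign for 59.3% of genes, and the correlation of the 2 differences across the 17749 genes was 0.50; the 2 comparisons share no array, and genes are not independent replicates. The wild-type comparison by itself called 0 genes by limma (lowest adjusted p = 1.00), with 164 (0.924%) higher and 279 (1.57%) lower at an unadjusted p under 0.05. A test of the difference between the 2 called 0 genes (limma interaction, lowest adjusted p = 1), with 213 (1.20%) and 152 (0.856%) at an unadjusted p under 0.05 in the higher and lower direction. Of the 5 genes of lowest p on the higher side 4 were among the 12 above, namely Acads, Pcp4l1, Rad9a and Nlgn2, which in wild-type leukemia differed by 0.04, -0.27, -0.07 and -0.15. The other, Snapc2, a subunit of the complex that starts transcription of small nuclear RNAs, was 0.38 higher in AMPK-deficient L-GMP and differed by -0.43 in wild type. On the lower side stood Tigd3, Lce3a, N4bp2l2, Cabp1 and Rdh16f2, with differences from -0.33 to -0.16 in AMPK-deficient and from 0.21 to 0.36 in wild-type leukemia.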

How the data were processed

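Expression was measured on 12 one-colour arrays, and the values analysed are linear intensity values per probe set as deposited by the authors, from 17.96 to 9108.2 over 33794 probe sets, with array medians of 36.9 to 39.3. Which software, background correction and normalization produced them was not given in the sources used here. Values were taken to log2 with no pseudocount and no further scaling. Of the probe sets, 23521 had 1 symbol in the platform annotation, 1814 several and 8459 none. Each of 22180 genes took its single-symbol probe set of highest mean, and 4431 genes with a mean under 4.72 (the 25% quantile over probe sets) were dropped as dim, leaving 17749. The 10273 probe sets without 1 symbol were tested apart, and 0 were called by limma (571 at an unadjusted p under 0.05, lowest adjusted p = 0.567).

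limma 3.58.1 in R 4.3.3 (statmod 1.5.0) was fitted with 1 mean per group over all 12 arrays (lmFit and eBayes, 8 residual and 2.36 prior degrees of freedom), with adjustment by Benjamini-Hochberg over the 17749 genes and a threshold of 0.05. SE in the text is that of the fit. The fit was tested on simulated data. The comparison, its members and the 38 gene lists (895 genes, 821 matched, 790 tested) were chosen with earlier results of these data known, and lists are described by counts and medians, with no set test. With arrays, their number limits the precision.

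Named genes were those of the gate, lineage antigens and AMPK catalytic subunits, the 12 higher and 12 lower genes of lowest p with non-overlapping arrays, since 0 were called (2 predicted genes among the lower were skipped), up to 5 members of lowest p of a list described, and the 5 genes of lowest interaction p in each direction, where 1 predicted gene was skipped. Elane, Mpo and Prg2 fall outside this rule and were named after their values were seen. Alternatives were quantile normalization, other filters, variance models, array weights, the 6 arrays alone, mean probe sets, blocks by replicate number and leaving out each array; leaving out both AMPK-deficient arrays numbered 2 was chosen after seeing the data. Promoter windows came from RefSeq, GRCm38.p6, matched by gene ID for 13700 of the genes tested. The window listed first for a gene was used, and windows on 1 chromosome were left out.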

Additional observations from a re-analysis of the deposited data

How the results depend on the processing

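The count of 0 called genes in the AMPK-deficient comparison stood under quantile normalization, no filter, array weights, the 6 arrays alone, mean probe sets, the fixed replicate block and without both arrays numbered 2 (lowest adjusted p from 0.0528 to 0.907 by limma). It was 1 (Cd34) with the lowest 50% of probe sets left out and 1 (Cd34) with a trended and robust variance; with single arrays left out it ran from 0 to 40, the 40 without whole leukemia 1. Same-numbered arrays deviated together with correlations of 0.13, 0.09 and 0.43 in AMPK-deficient and 0.36, 0.62 and 0.30 in wild-type leukemia. Arrays of unequal number had correlations from -0.38 to 0.19 in AMPK-deficient and from -0.37 to 0.03 in wild-type leukemia. Deviations were taken from the mean of each group, so a positive correlation for 1 pair forces negative ones elsewhere. The 0.19 was that of L-GMP 2 with whole leukemia 1. Whether equal numbers mark 1 recipient is not stated and was not tested. The random replicate block called 2 genes (Cd34 and Acads) and the fixed one 0. The wild-type and interaction counts were 0 under every setting that gives one. The 24 genes of lowest p kept their direction in each of the 527 values that the 22 settings gave; Il1f9 had no value with the lowest 50% of probe sets left out. The direction turned for 12 of 111 named genes, most with small differences, but also for Prg2, Cpa3 and Mki67, at 1.28, 1.16 and -0.82 with all arrays. With array weights Cd4 was at -0.12, Fcgr3 at -0.076, Mki67 at 0.029 and Prkaa1 at 0.045. Without both arrays numbered 2, Cd3e was at 0.050, Cd4 at -0.11, Elane at -0.00953 and Ly6c2 at -0.15. With single arrays left out, Cd4 ran from -0.14 to 0.10, Cpa3 from -0.059 to 1.78, Elane from -0.017 to 1.00, Fcgr3 from -0.015 to 0.22, Klrb1c from -0.13 to 0.00647, Ly6c1 from -0.25 to 0.00942, Ly6c2 from -0.017 to 0.32, Prg2 from -0.29 to 3.23 and Prkaa2 from -0.014 to 0.031. The cause was not tested. Of list medians, 4 of 836 values moved by more than the spread between replicates. With the lowest 50% left out, where fewer genes were tested, these were -0.69 for lineage antigens, 0.18 for B cell and 0.12 for stroma genes. The last was 0.07 for the Bcl2 family without L-GMP 2. That spread was the larger SD of the list's array medians in the 2 AMPK-deficient groups, which an outlying array widens. The erythroid change from -1.24 to -0.14 and the turn of the G2/M median without whole leukemia 2 thus went uncounted. The count is therefore no measure of how stable the medians were.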

Other observations

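Genes of mast cells, basophils and eosinophils set L-GMP array 2 of the AMPK-deficient samples apart. The mean over the 12 tested genes of this list was 7.40 on that array, 6.23 and 6.08 on the other L-GMP arrays, and 5.83, 6.68 and 6.31 on whole leukemia 1, 2 and 3, and L-GMP 2 was the highest of the 6 arrays for 7 genes. Cpa3, the mast cell carboxypeptidase, read 8.41 on L-GMP 2 and between 4.49 and 5.28 on the other 5. Prg2, the eosinophil major basic protein, read 8.85, 11.92 and 5.57 in L-GMP and 5.45, 11.38 and 5.66 in whole leukemia, so that both arrays numbered 2 were high. Mcpt8, the basophil protease, read 8.32, 6.86 and 8.61 in whole leukemia and 8.40, 8.97 and 8.70 in L-GMP. The list median was 0.37 with 9 of 12 higher, 0.25 without whole leukemia 2, -0.12 with 4 higher without L-GMP 2, and 0.00 in wild-type leukemia. Without L-GMP 2 the differences of Cpa3 and Prg2 turned, from 1.16 to -0.06 and from 1.28 to -0.29.

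Lymphoid and interferon genes had lower means in L-GMP for most members. Of 16 T and NK cell genes 13 were lower in L-GMP, at a median of -0.11 (-0.07 without whole leukemia 2 and -0.18 without whole leukemia 1); Cd3d, of the T cell receptor complex, read 5.41, 8.50 and 5.77 in whole leukemia against 5.18, 5.37 and 5.84 in L-GMP, and Ccl5, a chemokine of T cells, 6.01, 7.13 and 7.79 against 5.88, 5.64 and 6.38. Of 14 B cell genes 10 were lower, at a median of -0.11, and 7 without whole leukemia 2. Of 25 interferon response genes 21 were lower, at a median of -0.10, 16 without that array and 14 without L-GMP 2; Rsad2, the antiviral enzyme viperin, read 5.07, 8.39 and 5.19 against 4.97, 5.06 and 5.07. The part of other cells in these values was not tested.

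Immediate early genes, which respond within minutes to handling and growth signals, were lower for 13 of 20 members, at a median of -0.11, and the split was 10 to 10 without whole leukemia 2 and 9 lower without L-GMP 2. Fosl2, an AP-1 factor, read 6.78, 7.63 and 7.73 in whole leukemia and 6.46, 6.18 and 6.80 in L-GMP. Of the 14 genes of the Bcl2 family and apoptosis 6 were higher, at a median of -0.06 that ran from -0.16 (without whole leukemia 2) to 0.07 (without L-GMP 2). Bmf, a BH3-only activator of cell death, read 6.38, 6.30 and 6.74 against 6.04, 5.85 and 6.02, with arrays apart, and Mcl1, which protects from it, read 9.40, 9.80 and 9.82 against 9.52, 8.95 and 9.32. The dendritic and MHC class II list had 8 of 20 higher, 9 without whole leukemia 2; H2-DMa, a chaperone of peptide loading, read 7.90, 7.19 and 8.45 against 8.25, 8.80 and 9.17.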
